A study of Mus musculus with 5 samples.

Results

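The stefin A genes are a family of short, closely related genes that lie side by side on mouse chromosome 16. Of the 31053 genes in the count matrices, 7 were taken by their symbols: Stfa1, Stfa2, Stfa3, Stfa2l1, BC100530, BC117090 and Gm5483. They were chosen because earlier results on the same matrices had placed Stfa3, Stfa2 and BC100530 among the genes higher in BM monocytes on day 7 after cyclophosphamide (CTX). Differences between D7 CTX and naive BM are therefore given as a description. All 7 genes had UMIs (unique molecular identifiers, each standing for 1 captured RNA molecule) in each whole BM library.

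Stefins, also called type 1 cystatins, are small proteins that stay inside the cell and block papain-like cysteine proteases, the cathepsins among them. Mice carry an expanded stefin A cluster where humans have a single gene, CSTA. In mouse BM the cluster is known for its expression in maturing neutrophils, which pass from dividing progenitors and pre-neutrophils through immature cells that fill their secondary granules to mature cells ready to leave the marrow.

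Single-cell RNA was measured in BALB/c mice with droplet 3′ libraries, 1 library for each of 5 groups. Whole BM came from naive mice, from mice on day 2 after CTX (D2 CTX) and from mice on day 7 (D7 CTX), and each library pooled live-enriched cells of 3 mice. CTX, an alkylating chemotherapy agent, was injected into the peritoneum at 150 mg/kg in PBS. For the last 2 libraries, CD11b+Ly6Chi monocytes had been sorted, 1 from naive and 1 from CTX-treated mice. The labels give no day for the CTX cells, and the study's methods give day 7. The labels call the BM cells mononuclear and give CD45+ in the genotype field for all groups. How many mice the sorted cells came from is not given in the sources used here. With 1 library per group the spread between mice could not be seen, so no difference between groups was tested, and all intervals below are 95% intervals that cover counting error only.

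All 7 genes have 3 exons and span a short stretch of chromosome 16 in the GRCm38 build. From the proximal end they are ordered Stfa2l1, Gm5483 and Stfa1 on the plus strand, then BC117090, BC100530, Stfa2 and Stfa3 on the minus strand. Stfa2l1 starts the series at position 36156811 and Stfa3 ends it at 36455392. BC100530 overlaps an annotated antisense gene, Gm15845. The members are so alike that short reads may not always tell them apart. Over aligned transcripts BC100530 was 97.1% identical to Stfa1 and 96.9% identical to BC117090, and Stfa2 was 96.0% identical to Stfa2l1. Of the 90-base windows in the last 300 bases of the transcripts, where 3′ reads fall, 41.7% of those of BC100530 also occurred in another gene of the locus, as did 23.2% for BC117090, 21.3% for Gm5483 and 18.5% for Stfa1. Stfa2 at 3.79% and Stfa2l1 at 3.32% shared few, and Stfa3 shared 0. Levels of BC100530, BC117090, Gm5483 and Stfa1 are uncertain to that extent. The reference genome is of another mouse strain than BALB/c, and what this does to the split between members was not tested.

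The sequences just before the starts of the genes by RefSeq are shown to let the members be compared, since 6 of them hold the same short run there. RefSeq (GRCm38.p6) gave a promoter for 6 of the 7 genes, Gm5483 being listed there as Cstdc4 and BC100530 as Cstdc5; BC117090 had no entry. In the GENCODE annotation used for the coordinates above, genes start earlier than in RefSeq for Stfa1, BC100530 and Stfa2, and their stretches below lie within the gene. In the 250 bases before the start, 5 motifs and the longest run that all 6 promoters share were searched on both strands. Each line gives 30 bases, 5′ to 3′ on the strand of the gene, with TTTAAA in capitals.
Stfa2l1, chr16:36156766-36156795, plus strand: tttacagaaaccTTTAAAaccctgagtctc
Gm5483, chr16:36184171-36184200, plus strand: tttacagataccTTTAAAaccctgactctt
Stfa1, chr16:36277106-36277135, plus strand: ctttcggataccTTTAAAaccctgagtctc
BC100530, chr16:36367562-36367591, minus strand: tttacagataccTTTAAAaccccgagtctc
Stfa2, chr16:36408375-36408404, minus strand: cttacagaaaccTTTAAAaccctgagtctc
Stfa3, chr16:36455406-36455435, minus strand: ttacagataaccTTTAAAaccccgagtctc

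The run TTTAAA lay in the same surroundings in all 6, within ACCTTTAAAACC, the 12-base run that all 6 share. Its first base stood 33 bases before the RefSeq start of Stfa2l1, 29 before Gm5483, 30 before Stfa1, 29 before Stfa2 and 31 before Stfa3. For BC100530 it stood 9 bases before the RefSeq start. Of all 32851 promoters of this length, 12.1% held TTTAAA and 0.0335% held the longer run, which contains it. The sequence TATAAA was in 0 of the 6, against 12.4% of all promoters. GAGGAA was in all 6, against 23.3% of all. AGATAA was in those of Stfa1, BC100530 and Stfa3, against 9.99% of all, and TTGCNNAA was in those of Stfa1 and BC100530, against 9.56%. Over these 250 bases, Stfa1 and BC100530 were 96.1% identical, and Stfa2l1 and Stfa2 92.3%.

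After filtering, 7104 naive, 6126 D2 CTX, 8290 D7 CTX, 1891 sorted naive and 2564 sorted CTX cells were kept, with median depths of 3953.5, 3033.5, 7189.5, 10299 and 9694 UMIs. Clusters made without the 7 genes were named from marker genes as progenitor, pre-, immature and mature neutrophils, B lineage cells, T cells and granulocyte-monocyte progenitors (GMP). A cycling cluster with markers of monocytes and of monocyte-dendritic cell progenitors, in which the former scored higher, is called the MDP cluster. A cluster led by Retnlg and Prok2, with markers of immature and of mature neutrophils, is called the intermediate cluster, and a cluster with monocyte markers the monocyte-marker cluster. A level is the share of a gene in all UMIs of a class, scaled to counts per 1000000 (CPM) and not corrected for gene length. Scaling matters for the D2 CTX libraries: the median log2 ratio over all genes tested was 0.42 in mature neutrophils on D2 and -0.14 on D7, and 0.27 and -0.22 in immature ones. Any 2 libraries shared between 2 and 16 barcodes.

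In naive BM the 7 genes rose along the neutrophil stages. Together they stood at 136 CPM in progenitor neutrophils, 213 CPM in pre-neutrophils, 1351 CPM in immature neutrophils, 6711 CPM in the intermediate cluster and 8357 CPM in mature neutrophils. The neutrophil clusters made up 42.3% of the naive cells and held 92.2% of their stefin A UMIs. B lineage cells, which were taken as the measure of free RNA, stood at 59.9 CPM. Neighboring stages differed by more than counting error at each step.

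The members differed in which stage carried most of them. Gm5483 went from 14.4 CPM in naive progenitor neutrophils to 3277 CPM in mature ones and was the most abundant member there. Stfa2l1 went from 21.2 to 1769 CPM. BC100530 went from 87.1 CPM to 2972 CPM in the intermediate cluster and 2538 CPM in mature cells. Stfa2 reached 621 CPM in mature cells. Stfa3, like BC100530, had its highest naive level in the intermediate cluster, 297 CPM against 127 CPM in mature cells. BC117090 stayed at or below 31.5 CPM and Stfa1 at or below 4.33 CPM in every naive neutrophil class.

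**Figure D1:**
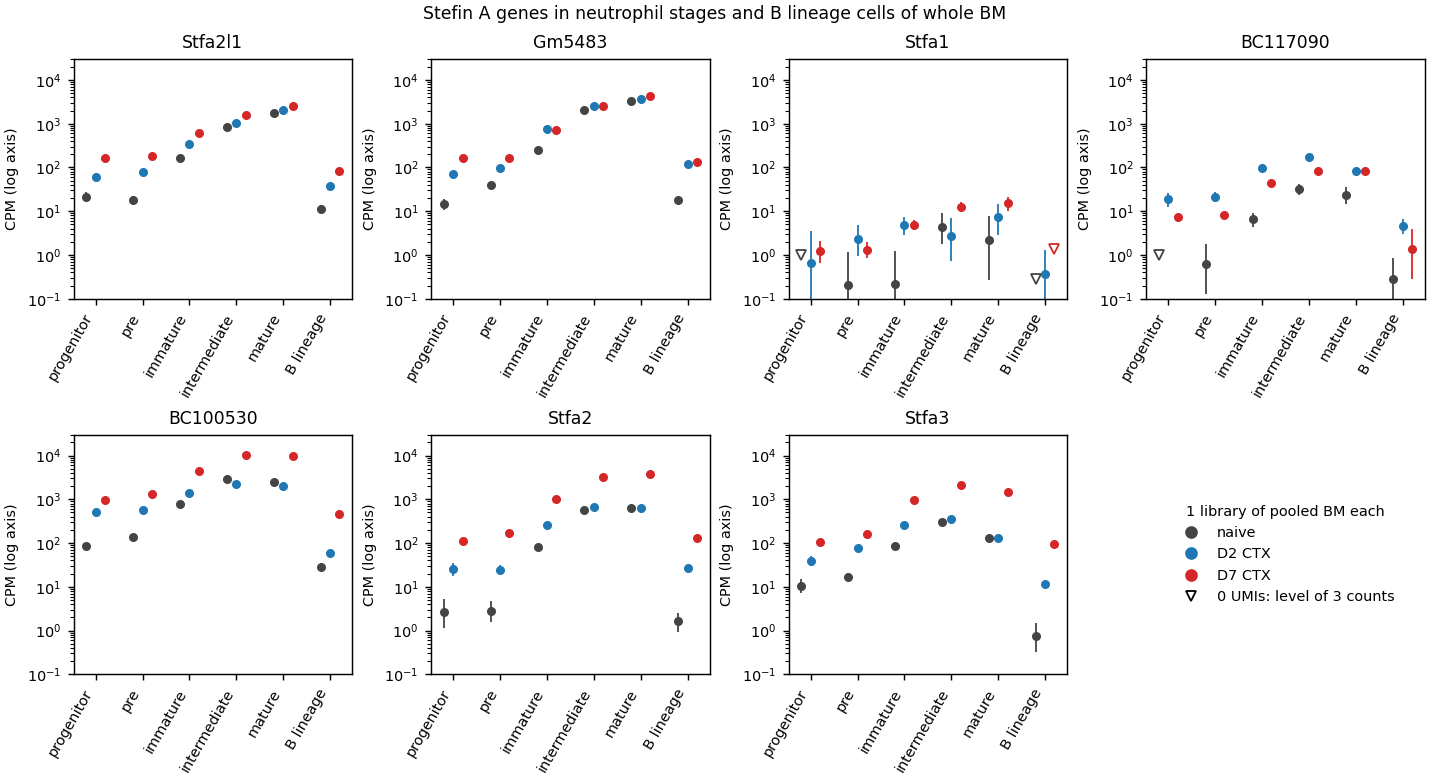
Level of each stefin A gene (CPM, log axis) along the neutrophil stages and in B lineage cells, with 1 point for each whole BM library and bars for 95% Poisson intervals. Triangles stand at the level of 3 counts where 0 UMIs were seen. Stfa3 in mature neutrophils stood at 127 and 131 CPM in the naive and D2 CTX libraries and at 1437 CPM in the D7 CTX library.

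Over all kept cells the summed level was 615 CPM in naive BM, 1251 CPM on D2 and 4621 CPM on D7. These are log2 ratios to naive of 1.02 on D2 and 2.91 (2.89 to 2.93) on D7, and both share the naive library. On D7, Stfa3 went from 25.0 CPM to 471 CPM, Stfa2 from 42.7 to 649 CPM and BC100530 from 275 to 2525 CPM. These 3 had the 3 highest ratios of 5608 genes tested, at 18.8-, 15.2- and 9.19-fold. Of the 6 members with enough UMIs for this count, 6 stood at least 1 log2 unit higher on D7, as did 1.41% of all genes tested, and their median of 2.92 compares with -0.58 for all genes. On D2 it was 4 of 6, beside 5.4% of all genes; scaled by the median gene, Gm5483 at 0.95 and Stfa2 at 0.98 were no longer past 1 log2 unit. BC117090, at 29.7 CPM against 2.56 CPM, led the members on D2 and ranked 6 of 6221 genes.

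The make-up of the marrow changed as well, since neutrophil clusters made up 44.1% of cells on D2 and 75.7% on D7. Naive levels per class combined with the D7 CTX shares of UMIs gave 1118 CPM, a log2 ratio of 0.86 to naive. Conversely, D7 CTX levels with the naive shares gave 2762 CPM, a log2 ratio of 2.17. For D2 CTX the corresponding values were 790 CPM (0.36) and 1124 CPM (0.87). With the shares of the named classes held, the summed level thus still differed from naive on both days. The stages of cells inside a class were not held alike by this, and their part was not tested.

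In mature neutrophils the members differed in how far their D7 CTX level stood from naive. Stfa3 stood at 127 CPM in naive, 131 CPM in D2 CTX and 1437 CPM in D7 CTX cells. Stfa2 stood at 621, 628 and 3752 CPM, and BC100530 at 2538, 2033 and 9794 CPM. For these members the D7 CTX library stood apart from the other two. Their log2 ratios of D7 to naive were 3.50 (3.23 to 3.78), 2.59 (2.47 to 2.72) and 1.95 (1.89 to 2.01).

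Stfa2l1 and Gm5483 differed less between the libraries in mature neutrophils. Stfa2l1 stood at 1769, 2060 and 2490 CPM, and Gm5483 at 3277, 3659 and 4326 CPM, in the same order of libraries. Their D7 ratios were 0.49 (0.41 to 0.57) and 0.40 (0.34 to 0.46) on the log2 scale, still above the median gene. BC117090, at 23.0, 80.9 and 81.6 CPM, was as high on D2 as on D7, and Stfa1 had 2 naive UMIs. Of 5 members tested, 3 were at least 1 log2 unit higher in mature neutrophils on D7, beside 0.945% of 1482 genes. Stfa3 had the highest ratio of those genes, Stfa2 the fourth and BC100530 the seventh. Of 5 secondary granule genes, which belong to the earlier stages, 3 stood over 1 log2 unit higher in mature D7 CTX cells. Ltf, which encodes lactoferrin, was at 3.19, Camp, which encodes the cathelicidin peptide, at 1.69 and Ngp at 1.55, while Cd177 was at 0.39 and Lcn2, which encodes lipocalin 2, at -0.19. The chemokine receptor gene Cxcr2 stood at -0.81. The part of these genes in the stefin A levels was not tested.

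In immature neutrophils all members were higher on D7. BC100530 stood at 762 CPM in naive, 1421 CPM in D2 CTX and 4524 CPM in D7 CTX cells. Stfa2 stood at 83.3, 257 and 1041 CPM, and Stfa3 at 85.9, 255 and 980 CPM. All 3 members were ordered naive, D2 CTX, D7 CTX. Gm5483, at 246, 753 and 714 CPM, stood slightly higher on D2 than on D7. The log2 ratios of D7 to naive were between 1.54 for Gm5483 and 3.64 for Stfa2 among the 6 tested, all 6 past 1 log2 unit beside 0.372% of 3496 genes. Ngp at 0.05 and Ltf at 0.08 were near their naive levels there. Of the 10 stage genes tested in this class, 0 were past 1 log2 unit higher and 1 past it lower. In its large cluster with less Ngp, Ngp went from 21625 CPM in naive to 29964 CPM in D7 CTX cells, and Cxcr2 from 455 to 233 CPM. In the cluster with more Ngp, Ngp went from 44774 to 42195 CPM and Cxcr2 from 153 to 129 CPM.

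The earliest stages had the same direction. In pre-neutrophils Stfa2 had 14 UMIs in naive and 3125 UMIs in D7 CTX cells, 2.86 against 172 CPM, a log2 ratio of 5.91 (5.16 to 6.78). BC100530 stood at 135, 569 and 1333 CPM over the 3 libraries, and Stfa3 at 17.0, 77.3 and 160 CPM. In progenitor neutrophils BC100530 stood at 87.1, 512 and 982 CPM. All 5 tested members had the 5 highest ratios of 3814 genes in progenitor neutrophils on D7 (0.393% of genes past 1 log2 unit), and in pre-neutrophils they held ranks 1, 2, 3, 4 and 6 of 3666 (0.355% past it). These ranks were not particular to the early stages, since the same members held ranks 1, 2, 3, 4 and 5 of 6109 genes in B lineage cells on D7. Stfa2 stood at 132 CPM in those B lineage cells, and at 15.9 CPM without their 5 highest cells. Summed B lineage levels in the same libraries are given below, since free RNA weighs most where a stage is low.

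**Figure D2:**
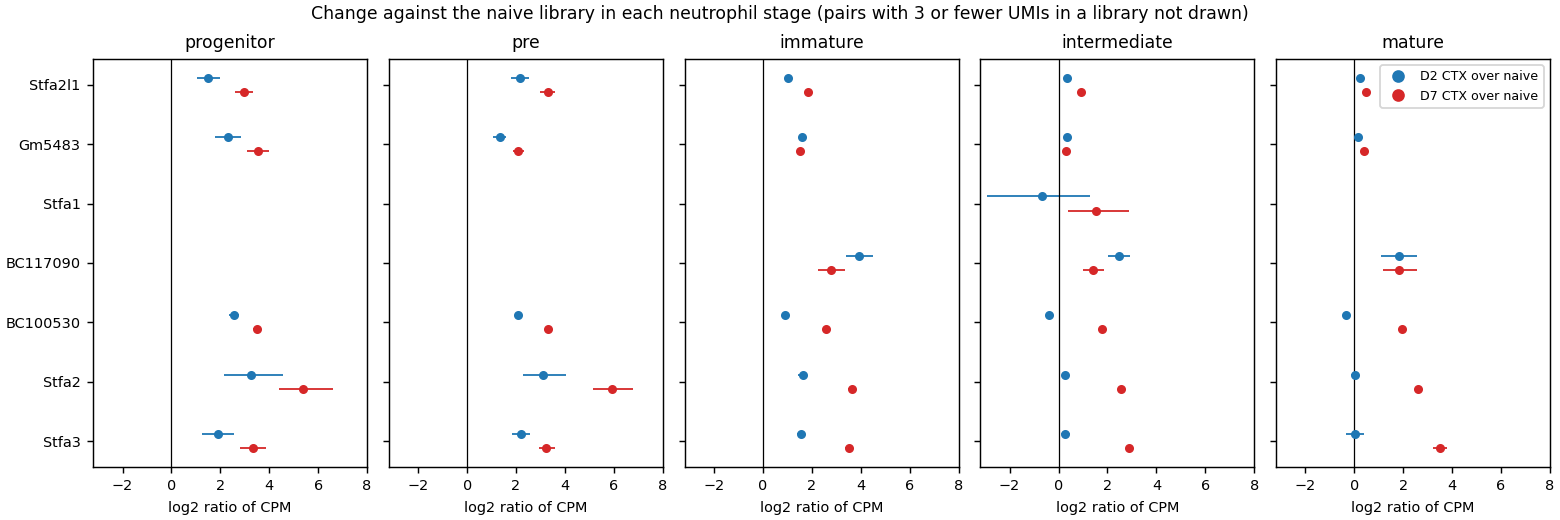
Log2 ratio to naive of the level of each stefin A gene in D2 CTX (blue) and D7 CTX (red) cells, in 5 panels from progenitor to mature neutrophils, with 95% intervals of the counts; pairs with 3 or fewer UMIs in a library are not drawn. In mature neutrophils the D2 CTX points of Stfa2l1 (0.22) and Gm5483 (0.16) lie above 0 but below the median of all genes (0.42), and the D7 CTX points of Stfa3, Stfa2 and BC100530 lie at 3.50, 2.59 and 1.95.

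Among the members tested, BC117090 led the D2 CTX pattern in all cells and in immature neutrophils. BC117090 in immature neutrophils stood at 6.54 CPM in naive, 99.7 CPM in D2 CTX and 44.5 CPM in D7 CTX cells, so that its level was highest on D2. Its D2 log2 ratio of 3.93 (3.40 to 4.52) was the highest of 3322 genes. Of 6 members, 5 were past 1 log2 unit in immature neutrophils on D2, beside 5.12% of the genes, and Gm5483 at 1.61, Stfa2 at 1.62 and Stfa3 at 1.57 were among them. BC100530 at 0.90 was not. BC117090 had 3 UMIs in naive pre-neutrophils and 64 in those of D2 CTX BM, with a ratio of 5.10 (3.49 to 7.42), on the log2 scale, and 4 of 4 tested members were past 1 log2 unit beside 7.75% of genes. The D2 CTX pre-neutrophils numbered 258, and 19 of them in 1 cluster held 786 of their 2654 stefin A UMIs at 2931 CPM. The remaining clusters of that class stood at 673 and 675 CPM.

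The later stages hardly shared in the D2 CTX difference. In mature neutrophils the sum was 8357 CPM in naive and 8601 CPM in D2 CTX cells, a log2 ratio of 0.04 that turned to -0.24 when scaled by the median gene, and 0 of 5 members were past 1 log2 unit beside 9.56% of genes. Stfa2 and Stfa3 stood at 0.02 (-0.15 to 0.18) and 0.04 (-0.34 to 0.42). Stfa2l1 at 0.22 and Gm5483 at 0.16 were above naive in CPM but below it relative to the median gene at 0.42, and the same held in the intermediate cluster for Stfa2l1 at 0.34, Gm5483 at 0.33, and Stfa2 and Stfa3 at 0.27 against 0.39. BC100530 was lower, from 2972 to 2259 CPM in the intermediate cluster and from 2538 to 2033 CPM in mature cells, log2 ratios of -0.40 (-0.46 to -0.33) and -0.32 (-0.41 to -0.23). BC117090 was the exception, from 31.5 to 175 CPM in the intermediate cluster, the fourth highest ratio of 1633 genes, and from 23.0 to 80.9 CPM in mature cells, where it had too few UMIs for the count. That cluster had 1 of 6 members past 1 log2 unit beside 6.43% of genes on D2, and 4 of 6 beside 0.911% on D7.

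Ratios between members of 1 library do not depend on its scaling. Stfa2 and Stfa2l1, the pair with few shared windows, stood at a ratio of 0.480 over all naive neutrophil clusters, which was 0.528 on D2 and 1.62 on D7. The order of the pair was thus turned around on D7. In mature neutrophils the ratio was 0.351, 0.305 and 1.51, and in immature neutrophils 0.501, 0.758 and 1.74. In pre-neutrophils it was 0.157, 0.307 and 0.964, so the members were nearly level there on D7.

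BC100530 and BC117090 are alike in sequence and changed their ratio on D2 instead. BC100530 had 110 times as many UMIs as BC117090 in naive neutrophil clusters, 16.2 times as many on D2 and 118 times as many on D7. The lower D2 CTX ratio was present in each stage with counts, at 27.0 in pre-neutrophils against 220 in naive, 12.9 in the intermediate cluster against 94.3, and 25.1 in mature neutrophils against 110. From D2 to D7 the BC117090 level over all neutrophil clusters went from 76.1 to 28.7 CPM, a log2 ratio of -1.41, while BC100530 went from 1233 to 3377 CPM, a log2 ratio of 1.45. BC117090 was 96.9% identical to BC100530 over aligned transcripts, and 23.2% of its windows also occur elsewhere in the locus. Whether part of its UMIs came from a relative was not tested.

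**Figure D3:**
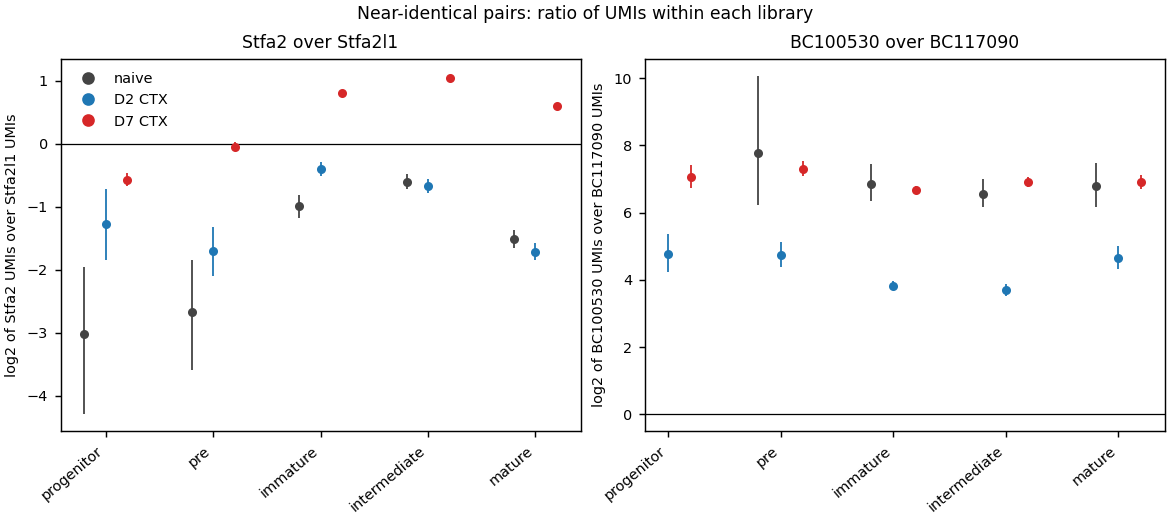
Log2 ratio of Stfa2 to Stfa2l1 (left) and of BC100530 to BC117090 (right) by neutrophil stage, with 1 point per library and bars for 95% intervals. The D7 CTX point lies above the naive point in each stage on the left, from 0.674 to 2.05 as a plain ratio. On the right the D2 CTX point lies lowest in each stage, between 12.9 and 27.5. The naive progenitor point is not drawn there, since BC117090 had 0 UMIs.

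The make-up of the stefin A pool followed from these levels. Along naive stages, from progenitor to mature neutrophils, BC100530 went from 64.2% of the stefin A UMIs to 30.4%, and Gm5483 from 10.6% to 39.2%. In D2 CTX cells the same turn ended at 23.6% for BC100530 and 42.5% for Gm5483. In D7 CTX mature neutrophils BC100530 still made up 44.7%, Gm5483 19.8% and Stfa2 17.1%. The D7 CTX mature cells thus lacked the naive order in which Gm5483 came first.

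**Figure D4:**
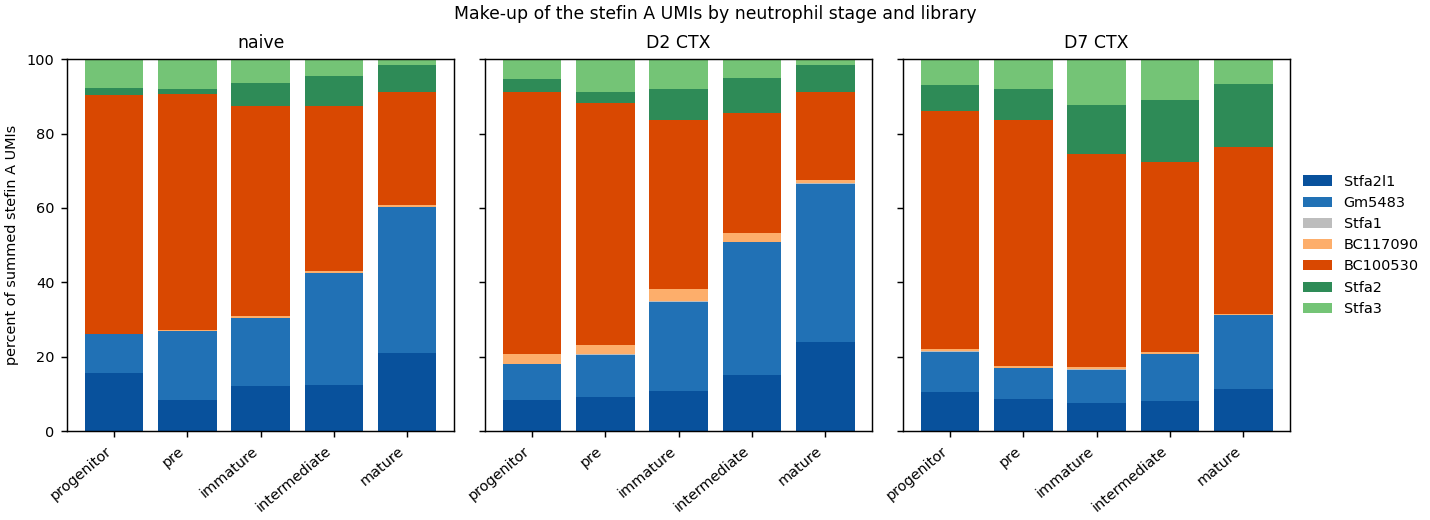
Share of each member in the summed stefin A UMIs (percent, stacked bars) by neutrophil stage, with a panel for each library. The Gm5483 share of mature neutrophils was 39.2% in naive BM, 42.5% on D2 and 19.8% on D7.

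The rise was also read cell by cell, after thinning each cell to 1000 UMIs. A stefin A UMI was then found in 74.4% of naive mature neutrophils, and in 78.7% on D2 and 90.8% on D7. In immature neutrophils the shares were 30.7%, 59.2% and 51.1%, so that on D2 more cells carried a UMI than on D7 although the D7 sum was higher (3129 against 7906 CPM). Without thinning the immature shares were 47.3%, 79.0% and 71.1% at median depths of 4189, 4070 and 6466 UMIs, and the mature shares 73.8%, 77.8% and 94.9% at 1774, 1220.5 and 3269. B lineage cells, which should lack these transcripts, gave 2.67%, 15.8% and 7.55% thinned, and 7.55%, 33.4% and 27.9% unthinned at 2811, 2531 and 7649 UMIs. The B lineage share was thus highest on D2. With under 1000 UMIs, 77 naive mature neutrophils did not enter the thinned shares, nor did 259 on D2 and 11 on D7.

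Single mature neutrophils often held several members. After thinning, at least 2 members were found in 48.4% of naive mature neutrophils, 58.5% on D2 and 75.0% on D7, and at least 3 in 22.1%, 33.0% and 56.0%. The median cell stood at 3836, 3953 and 13013 CPM for the sum. On D7 the 5 highest mature cells held 7.07% of the class's stefin A UMIs and the 5 highest immature cells 5.03%. The median immature neutrophil stood at 0, 1020 and 679 CPM in naive, D2 CTX and D7 CTX BM, so it was lower on D7 than on D2. For D7 CTX immature cells the third quartile was 5984 CPM and the class level 7906 CPM. The D7 level of that class was thus carried by a minority of its cells. Pre-neutrophil shares were 10.3%, 27.7% and 28.5%, above the B lineage shares of the same libraries.

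Outside the neutrophil clusters the levels were set against B lineage cells. These stood at 59.9 CPM in naive BM, 259 CPM on D2 and 913 CPM on D7, and 5 of 5 tested members were at least 1 log2 unit higher in them on D7, beside 0.868% of genes. Of the 2030 stefin A UMIs of D7 CTX B lineage cells, 84.4% were in 5 of 215 cells, and without the 5 highest cells of each library the levels were 31.4, 205 and 148 CPM. The secondary granule genes Ltf, Ngp, Camp, Lcn2 and Cd177, which are neutrophil genes, stood at 1999, 881 and 8821 CPM in B lineage cells. They were thus lower than naive on D2, where the stefin A sum was higher, and higher than naive on D7. Without the 5 highest cells they stood at 1787, 858 and 8215 CPM.

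The monocyte-marker cluster, the class in which the choice of genes began, stood at 182, 349 and 826 CPM. Its D7 log2 ratio of 2.19 (2.04 to 2.34) came with 4 of 5 tested members past 1 log2 unit, beside 0.488% of genes, and Stfa3, Stfa2 and BC100530 had the 3 highest ratios of 3894 genes. The D7 CTX level of 826 CPM nevertheless lay below the 913 CPM of B lineage cells in the same library. The 5 highest cells held 53.6%, 57.0% and 55.9% of the stefin A UMIs of the cluster, and without them it stood at 85.8, 160 and 371 CPM. B lineage cells without their 5 highest cells stood at 31.4, 205 and 148 CPM, so that on D7 they then lay below the cluster. With cells called doublets by Scrublet removed and the rest clustered again, the monocyte-marker cluster stood at 12.2, 193 and 186 CPM over 366, 141 and 497 cells. B lineage cells then stood at 12.7, 169 and 536 CPM. The order on D7 thus depended on how high cells were treated. After thinning, a stefin A UMI was found in 5.01%, 16.3% and 9.85% of the cells of the monocyte-marker cluster, against 2.67%, 15.8% and 7.55% of B lineage cells. The unthinned median depths of the monocyte-marker cells were 5577.5, 5350 and 6626 UMIs. The granule genes of the monocyte-marker cluster stood at 3418, 2865 and 8142 CPM. The median monocyte-marker cell held 0 stefin A UMIs in each library, and what share of the level arose in monocytes was not tested.

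**Figure D5:**
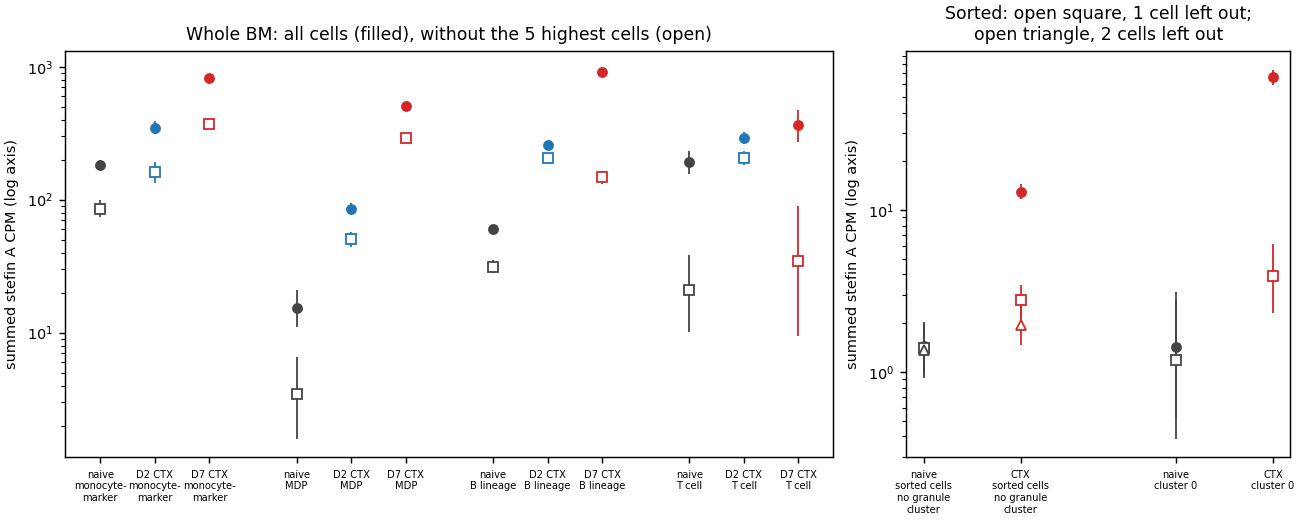
Left: summed stefin A level (CPM) in the monocyte-marker and MDP clusters, B lineage and T cells by library, with all cells (filled) and without the 5 highest cells of each class and library (open). Right: the same sum in sorted cells outside the granule cluster, with all cells and with 1 (open square) or 2 (triangle) of the highest cells left out; the sorted CTX level of 12.99 CPM became 2.77 CPM and then 1.95 CPM.

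Sorted CD11b+Ly6Chi cells held few stefin A UMIs. The sum was 206 UMIs (9.25 CPM) in the naive and 1172 UMIs (40.9 CPM) in the CTX library, a log2 ratio of 2.15 (1.93 to 2.37). BC100530, with 52 and 613 UMIs, was the single member with enough UMIs to be tested. It had the highest ratio of 5549 genes, 3.20 (2.79 to 3.64), beside 0.144% of genes past 1 log2 unit. That interval does not allow for UMIs gathered in few cells. A single CTX cell outside the granule cluster held 181 of the 613 UMIs. Within the granule cluster, leaving out the highest CTX cell took BC100530 from 884 to 482 CPM. With the stricter cell filter given below, the BC100530 ratio was 2.18 (1.75 to 2.64). Gm5483 differed by less than counting error, with 114 and 126 UMIs and a log2 ratio of -0.22 (-0.59 to 0.16). A cell with a stefin A UMI was rare, at 0.60% of naive and 1.12% of CTX cells thinned to 2000 UMIs and 2.27% and 2.81% unthinned. No B lineage class was available in the sorted cells to give a share of free RNA.

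Most of these UMIs lay in a small cluster led by neutrophil granule genes. Its 27 naive and 58 CTX cells held 174 of the 206 and 806 of the 1172 UMIs, at 1170 and 1841 CPM. There Gm5483 was lower in CTX cells, 281 against 760 CPM, and BC100530 higher, 884 against 323 CPM. Stfa2 had 0 naive UMIs, which allows up to 20.2 CPM for 3 counts, and 155 CTX UMIs at 354 CPM. A single CTX cell held 309 of the 806 UMIs. Without the highest cell of each library the naive part of the cluster was at 860 CPM and the CTX part at 1162 CPM, with Gm5483 at 524 and 288 CPM and BC100530 at 245 and 482 CPM, and CTX Stfa2 at 157 CPM. Outside this cluster the sum was 32 UMIs in naive and 366 in CTX cells, 1.45 against 12.99 CPM. There, 1 CTX cell held 288 of those 366, and it also had 985 S100a8, 1030 S100a9 and 151 Retnlg UMIs. Of the secondary granule genes it had 0 Ltf, 0 Camp, 4 Ngp, 7 Lcn2 and 6 Cd177 UMIs. Of the monocyte markers it had 5 Ly6c2, 4 Csf1r, 1 Cx3cr1, 9 S100a4, 14 Ccr2 and 2 F13a1 UMIs. The type of this cell was not tested. Without the 2 highest cells of each library the levels were 1.36 CPM in naive and 1.95 CPM in CTX cells, with an interval of the log2 ratio of -0.14 to 1.22 that includes 0.

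The other genes of the locus and of the pathway were examined in the same cells. Gm5416, the neighbor in the locus with the most UMIs, stood at 47.1, 48.7 and 89.6 CPM in mature neutrophils, a D7 log2 ratio of 0.93 (0.44 to 1.44). Csta1 and 2010005H15Rik, also in the locus, had between 0 and 4 UMIs in mature cells. Among other cystatins, Cstb, the intracellular stefin B, stood at 110, 111 and 106 CPM in mature neutrophils and Cst3, the secreted cystatin C, at 808, 707 and 848 CPM. Of the 4 genes in that list, 2 were tested, and 0 were past 1 log2 unit in mature or immature neutrophils on either day, with medians between -0.09 and 0.09. Of 11 genes of cathepsins and legumain, cysteine proteases of the lysosome, 3 had enough UMIs in immature neutrophils, and 0 were past 1 log2 unit there. Ctsb stood at 62.6, 63.1 and 60.1 CPM, Ctsh at 91.4, 72.8 and 100 CPM, and Ctsz at 23.6, 32.8 and 31.0 CPM in those cells.

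Genes of neutrophil stage give a further point of reference. In mature neutrophils on D7, 3 of 10 tested stage genes were past 1 log2 unit upward with a median of 0.11, against 1.95 for the stefin A members. The list mixes genes of early and of late stages, which moved in opposite directions. From naive to D7, Ltf went from 20.8 to 190 CPM, but Il1b from 1781 to 1189 and Mmp9 from 2051 to 1340 CPM. The medians of this list therefore cannot show whether the stage of the cells was alike. In immature neutrophils on D2, 2 of 10 were higher and 1 lower with a median of 0.26, against 1.58 for the members. There Camp stood at -1.22, and Il1b, a cytokine gene of activated neutrophils, at 1.83. Genes whose level followed the summed stefin A level most closely across 40 groups of class and library were Asprv1, Ceacam10 and Retnlg, with Pearson's r of 0.934, 0.921 and 0.887 among 9860 genes. Amer2, Mmp9, which encodes a gelatinase, C5ar1, the receptor of complement C5a, and Lpcat2 came next, between 0.866 and 0.876. These groups share libraries and neutrophil free RNA, so that the values describe this set of groups and no more.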

How the data were processed

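The authors deposited raw counts of UMIs per gene and barcode for 5 mouse libraries, made with Cell Ranger 3.1 on mm10 per the labels, with no normalization. The members and lists were chosen with earlier results of these data known. Barcodes numbered 7649 (naive), 6608 (D2 CTX), 8605 (D7 CTX), 2223 (sorted naive) and 2978 (sorted CTX), fewer than the cells the study states, with 22694817 to 68459527 UMIs each. Cells with at least 200 genes and under 20% mitochondrial UMIs were kept. Whole BM and sorted cells were clustered apart in Seurat 5.3.0 (R 4.3.3, resolution 0.8) with the 7 genes left out of the variable genes, and clusters were named from marker lists. Doublets were called with Scrublet (scanpy 1.11.5) and removed in an alternative only.

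Levels are summed UMIs as CPM with exact Poisson intervals. Log2 ratios have exact conditional intervals, and shares exact Clopper-Pearson ones, at 95%. Ranks and counts used genes with at least 200 UMIs over both groups and at least 20 CPM in 1 of them, with 1 CPM added, and a difference of at least 1 log2 unit. A count of 0 was given the level of 3 counts. The script was tested on simulated counts. Python 3.11.15, numpy 2.4.6, scipy 1.17.1, pandas 2.3.3, Biopython 1.88 and matplotlib 3.10.9 were used. Named genes are the 7 members, the genes of the fixed lists and the 10 most alike in level across groups. The study's human samples and its other assays were not analysed here.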

Additional observations from a re-analysis of the deposited data

Results flagged for a closer look

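BC100530 was lower than naive on D2 and higher on D7 in the later neutrophil stages, the one member whose direction differed between the days beyond counting error in any of the 5 neutrophil stages. In the intermediate cluster its log2 ratio was -0.40 in D2 CTX and 1.76 in D7 CTX cells, and in mature neutrophils -0.32 and 1.95. Each day is 1 library and both share the naive library, and the difference between the days was not tested.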

How the results depend on the processing

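No result past 1 log2 unit changed sign under any alternative run that gave a value. Subtracting the B lineage level gave none for the monocyte-marker cluster, as described below. Of the other results, the sum in mature neutrophils on D2, near 0, changed sign under 3 alternatives. No paired analysis was possible because each group is 1 library, and for the same reason no replicate could be left out. The summed log2 ratio of all cells on D2 (1.02) was 1.07 with at least 500 genes and under 10% mitochondrial UMIs, 0.99 without the 20 most abundant genes, 0.83 with median scaling and 0.73 as the mean of single cells; on D7 (2.91) it was 2.95, 3.35, 3.52 and 2.25, and 2.88 without doublets. In mature neutrophils on D2 (0.04) these gave 0.13, -0.28, -0.24 and -0.017, and 0.11 without the 5 highest cells; on D7 (1.39) they gave 1.45, 1.51, 1.58 and 1.46, with 1.50 without doublets, 1.48 without the 5 highest cells, 1.34 after subtracting the B lineage level and 1.45 at resolution 1.2. In immature neutrophils on D2 (1.21), they gave 1.01 without the 20 genes, 0.92 with median scaling, 1.08 as the mean of cells, 0.89 without doublets, 1.27 without the 5 cells and 1.15 after subtraction; on D7 (2.55), 2.67, 2.76, 2.39, 2.37, 2.60 and 2.44, and 2.66 with the stricter cell filter. Resolution 0.4, resolution 1.2 and the 7 genes among the variable genes, where the intermediate cluster joined this class, gave 0.58, 0.51 and 0.56 on D2 and 2.04, 1.97 and 2.11 on D7. Cells were also clustered again once doublets were removed, so that the classes changed with them. The monocyte-marker ratio on D7 (2.19) was 3.93 without doublets and 1.35 as the mean of cells. Subtraction gave no ratio, because the D7 level of this cluster lay below that of B lineage cells, 826 against 913 CPM. Its naive level lay above theirs, 182 against 59.9 CPM, so this alternative went against the direction of the ratio. The sorted ratio (2.15) was 1.42 with the stricter filter and 1.42 as the mean of cells, 3.17 without the granule cluster, and 0.52 without the 2 highest cells as well. Median scaling of classes, the 5 cells, the 2 cells and the single highest sorted cell, without which the sorted ratio was 2.12, were alternatives chosen after seeing the data.

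Shares of cells with a stefin A UMI moved with depth. In naive, D2 CTX and D7 CTX cells thinned to 2000 UMIs they were 79.1%, 88.4% and 93.8% in mature neutrophils (94.9% unthinned on D7), 39.5%, 68.9% and 58.6% in immature ones (47.3%, 79.0% and 71.1% unthinned) and 4.85%, 25.1% and 14.2% in B lineage cells (7.55%, 33.4% and 27.9% unthinned). Sorted naive cells gave 0.60% and 2.27% unthinned, and sorted CTX cells 1.12%, 1.71% at 5000 UMIs and 2.81% unthinned. With no filter on low counts the genes past 1 log2 unit numbered 815 in place of 336 in all cells on D2, 2507 for 112 in mature neutrophils on D2, 787 for 14 on D7, 485 for 170 in immature ones on D2, 61 for 13 on D7, 1611 for 103 in the monocyte-marker cluster on D2, 278 for 19 on D7, and 39 for 8 in sorted cells. Of 78 alternative values for single members, 47 stayed within their intervals, 31 moved and 0 changed sign. These values covered all cells on D2 and D7, mature neutrophils on D7 and sorted cells. Single members were not run this way in other classes, in mature neutrophils on D2 or without the highest cells. Among those that moved, Gm5483 and Stfa2 in all cells on D2 went from 1.14 and 1.17 to 0.95 and 0.98 with median scaling. BC100530 in sorted cells went from 3.20 to 2.18 with the stricter cell filter.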

Other observations

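Other progenitors and T cells held stefin A UMIs as well. The MDP cluster, which cycles and holds more of the monocyte than of the MDP markers, stood at 15.4 CPM in naive, 85.1 CPM in D2 CTX and 507 CPM in D7 CTX BM, and at 3.48, 50.4 and 293 CPM without the 5 highest cells. GMP stood at 30.2, 54.9 and 462 CPM, and at 9.30, 16.4 and 206 CPM without them. B lineage cells treated the same way stood at 31.4, 205 and 148 CPM, above both in naive and D2 CTX BM and below both on D7. With doublets removed and the cells clustered again, the MDP cluster stood at 290 CPM on D7, below the 536 CPM of B lineage cells. With all cells kept, the secondary granule genes of the MDP cluster stood at 2627, 1673 and 8953 CPM over the 3 libraries. T cells stood at 191, 290 and 364 CPM, and at 21.0, 207 and 34.8 CPM without the 5 highest cells. Some of these trimmed levels rest on few counts. D7 CTX T cells then held 4 UMIs in 28 cells, D2 CTX GMP 15 UMIs in 30 cells, and the naive MDP cluster 9 UMIs in 189 cells.

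The immature class joined 2 large clusters, and the 7 genes differed between them. The cluster with more Ngp (44774 CPM in naive cells) had summed levels of 465, 2344 and 5734 CPM over naive, D2 CTX and D7 CTX BM, and the cluster with less Ngp (21625 CPM) had 2653, 4133 and 10800 CPM. The D2 difference was thus larger in the former cluster, and this was not tested. From naive to D2 CTX cells of that cluster, Ngp went from 44774 to 28133 CPM and Retnlg from 5044 to 17100 CPM. In the latter cluster Ngp went from 21625 to 13974 CPM and Retnlg from 26221 to 29422 CPM. The cells of a cluster were therefore not alike in these stage genes between the libraries.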
